A study of Mus musculus with 30 samples.

Results

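A group of 7 genes of neural crest cells and of the glial cells that derive from them is described in forelimb buds of mouse embryos, with and without an inhibitor of WNT secretion. The genes are *Sox10*, *Foxd3*, *Mitf*, *Erbb3*, *Ngfr*, *Cdh19* and *Fabp7*, and they were taken as 7 of the 50833 genes in the count table, matched by symbol and gene identifier. They were selected on their levels in these same libraries, with their differences between C59 and DMSO limb buds already known, so those differences are given as a description without a test. All 7 are protein-coding and autosomal, as are 20569 genes of that table.

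The embryos were wild-type Swiss Albino mice. Pregnant females received 1 intraperitoneal injection at E10.5, either of DMSO, the solvent, or of Wnt-C59 (C59) in a DMSO-containing vehicle. C59 is a small molecule that inhibits porcupine, the enzyme that WNT ligands need for their secretion. Forelimb buds were collected 1, 6, 12, 18 and 24 h later, with 3 libraries for each of the 10 groups and 30 libraries in all, each made from polyA RNA, per the labels, of 1 pair of forelimb buds, per the methods of the study, which name several litters per group. By these methods the replicates are separate embryos, and the p-values below measure the spread between them. DMSO limb buds serve as the wild-type controls. The injection reaches the dam and the whole embryo, so C59 is not limited to the crest or to the limb bud.

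Neural crest cells leave the dorsal neural tube and give rise to neurons, glia and pigment cells. In the limb they arrive as Schwann cell precursors, the glial cells that travel along growing nerves and that can also become melanocytes. These cells depend on neuregulin from axons, which they read through the receptor ERBB3, and they keep the crest transcription factor SOX10. In whole limb buds they are a small minority among mesenchyme, ectoderm, muscle progenitors, vessels and blood, and in such bulk libraries fewer cells of a type and less RNA per cell cannot be told apart.

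SOX10 is the transcription factor that maintains crest and glial identity, FOXD3 is a transcription factor of early crest, and MITF directs the melanocyte lineage. ERBB3 is the neuregulin receptor of Schwann cell precursors, and NGFR is the low-affinity neurotrophin receptor also called p75. CDH19 is a cadherin of Schwann cell precursors, and FABP7 is a fatty acid binding protein of early glia. In the GRCm38 (mm10) assembly *Sox10* lies on chromosome 15 (79154908 to 79165240, minus strand), *Erbb3* on chromosome 10 (128567523 to 128589652, minus strand) and *Fabp7* on the same chromosome (57784881 to 57788450, plus strand). *Ngfr* lies on chromosome 11 (95568818 to 95587735, minus strand), *Cdh19* on chromosome 1 (110888326 to 110977584, minus strand), and *Mitf* on chromosome 6 (97807052 to 98021349, plus strand), with 8 annotated transcripts. *Foxd3* on chromosome 4 (99656299 to 99658622, plus strand) is a single exon of 2324 bases. Counts are sums over the exons of a gene and do not separate the transcripts of *Mitf*, and since the strand of counting is not stated, reads of a small RNA gene annotated inside *Foxd3* or inside *Erbb3* could not be told apart from those of the host.

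Sequence upstream of a start site was at hand for 4 of the 7 genes, from RefSeq promoter windows of the GRCm38.p6 build, and is shown so that the motifs searched can be seen in place. Each line gives a stretch of 200 bases that ends 50 bases short of an annotated start, 5′ to 3′ on the strand of the gene, and none of them overlaps an annotated exon of its gene. The lines are *Foxd3* (chr4:99656049-99656248, plus strand), *Fabp7* (chr10:57784673-57784872, plus strand), *Ngfr* (chr11:95587749-95587948, minus strand) and the most 3′ of the 3 *Mitf* starts in the table (chr6:97991533-97991732, plus strand). Capitals mark the only match to the motifs that were searched.
Foxd3: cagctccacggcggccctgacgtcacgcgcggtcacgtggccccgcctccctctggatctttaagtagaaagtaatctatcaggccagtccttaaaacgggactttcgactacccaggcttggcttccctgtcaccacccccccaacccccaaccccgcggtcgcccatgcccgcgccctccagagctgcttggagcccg
Fabp7: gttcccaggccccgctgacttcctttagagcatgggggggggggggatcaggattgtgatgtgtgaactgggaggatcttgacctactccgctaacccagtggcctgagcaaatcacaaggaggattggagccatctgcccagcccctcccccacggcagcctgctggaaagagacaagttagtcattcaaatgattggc
Ngfr: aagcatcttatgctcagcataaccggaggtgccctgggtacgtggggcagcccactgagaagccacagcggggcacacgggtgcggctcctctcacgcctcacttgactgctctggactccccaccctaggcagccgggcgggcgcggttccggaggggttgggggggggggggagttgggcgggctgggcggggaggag
Mitf: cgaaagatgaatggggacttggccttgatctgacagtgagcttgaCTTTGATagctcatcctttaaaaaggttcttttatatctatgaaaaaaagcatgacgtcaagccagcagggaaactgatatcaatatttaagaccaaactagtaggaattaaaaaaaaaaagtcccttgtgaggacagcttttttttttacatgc

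The motifs searched, on both strands and over all 6 windows of the 4 genes, were ATCAAAG, the core that TCF/LEF factors recognise downstream of WNT, and the SOX-type cores ACAAAG and ACAATG. None of the 3 is part of another, although the last letters of ATCAAAG share CAAAG with ACAAAG. *Mitf* had 1 match, the TCF/LEF core on the opposite strand (read as CTTTGAT), which begins at position -205 from the start. Among all 32851 windows of this length 2.64% held ATCAAAG, 13.6% held ACAAAG and 8.94% held ACAATG. The windows of *Foxd3*, *Fabp7* and *Ngfr* and the other 2 windows of *Mitf* held none of these letters. The *Fabp7* window has 57.0% G and C, the *Ngfr* window 70.0%, the *Foxd3* window 64.5% and the printed *Mitf* window 36.0%.

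The libraries held between 18188636 and 38974885 counts. Levels below are CPM, counts scaled to the library size after TMM normalisation over the 30 libraries, and FPKM, the length-scaled values computed by the authors, where genes are compared with one another. *Axin2*, a transcriptional target of WNT signaling, checked the treatment: it was 28.3 CPM ± 1.52 (SD, n = 3) in C59 and 112 CPM ± 6.47 in DMSO limb buds at 6 h, and 97.7 CPM ± 8.1 against 109 CPM ± 1.26 at 18 h (log2 fold change -0.16, edgeR adjusted p 0.333). *Prrx1*, the defining gene of limb mesenchyme in these lists, stood between 496 and 845 CPM in every library. Replicates of every group differed by more than counting noise. C59 18 h replicate 3 stood apart from the other C59 libraries of its time (chi-square per degree of freedom 45.5 and 38.1, against at most 18.2 in any other pair), and values at 18 h that rest on it are given with and without it. Summed over 4 Y-linked genes, FPKM was 19.8 to 33.2 in the C59 libraries of 6 h and listed at 0 in the DMSO libraries of 6 h, and 21.2 to 38.2 in the C59 and 0.0469 to 9.03 in the DMSO libraries of 1 h, so treatment and embryo sex cannot be told apart at 6 h and are unevenly mixed at 1 h. DMSO 1 h replicates 1 and 2 (7.66 and 9.03) lay between the low and the high values of all other libraries, and whether they hold RNA of more than 1 embryo was not tested. At 12 h the sum was 18.8, 0.108 and 0.417 in C59 and 0.146, 38.6 and 0.241 in DMSO libraries (replicates 1 to 3). At 18 h it was 0.0682, 19.7 and 24.2 in C59 and 0.0940, 21.0 and 0.0195 in DMSO libraries. At 24 h the sum was 19.3 to 25.0 in C59 and 20.1, 0.0147 and 19.6 in DMSO libraries.

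The first question was how the 7 genes change in wild-type limb buds over this day of development. All 7 had higher means at 24 h than at 1 h in DMSO limb buds. *Sox10* went from 2.78, 2.83 and 2.35 CPM at 1 h to 14.8, 15.2 and 12.9 CPM at 24 h. *Foxd3* went from 1.14, 0.843 and 0.541 CPM to 6.08, 4.61 and 3.73 CPM. The lowest library of 24 h lay above the highest library of 1 h for both genes. Tested in edgeR over the 15 DMSO libraries, the log2 fold change was 2.50 ± 0.17 (SE) for *Sox10* (Benjamini-Hochberg adjusted p 1.7e-09) and 2.58 ± 0.27 for *Foxd3* (adjusted p 3.84e-07). The 7 genes were selected on levels that include these libraries. The p-values of this and the later DMSO comparisons are thus no independent test of a rise.

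The receptors rose by a similar factor from a higher base. *Erbb3* stood at 18.0, 15.02 and 17.7 CPM at 1 h and at 72.0, 69.3 and 76.1 CPM at 24 h (log2 fold change 2.16 ± 0.11, edgeR adjusted p 9.53e-11). *Ngfr* stood at 20.6, 17.7 and 18.1 CPM at 1 h and at 76.9, 76.9 and 81.3 CPM at 24 h (log2 fold change 2.12 ± 0.09, edgeR adjusted p 6.1e-12). Neither gene had overlapping groups, and the replicates of each group lay close together.

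The glial genes *Cdh19* and *Fabp7* began near the limit of detection. *Cdh19* had 16, 5 and 7 counts in the 1 h libraries and 51, 104 and 48 counts at 24 h, and its level went from 0.410 CPM ± 0.277 (SD, n = 3) to 2.80 CPM ± 1.07 (log2 fold change 2.84 ± 0.38). *Fabp7* had 4, 0 and 2 counts at 1 h and 16, 31 and 22 counts at 24 h (log2 fold change 3.45 ± 0.59). At these depths the size of both changes is poorly fixed. Both genes passed the filter on low counts only through the later libraries, where they were high, so their changes with time are given as a description without a p.

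*Mitf*, the melanocyte factor, changed least. Its DMSO libraries read 2.69, 4.21 and 3.1 CPM at 1 h and 4.92, 4.12 and 4.54 CPM at 24 h, so that the groups overlapped. The log2 fold change of 0.50 ± 0.20 (edgeR, adjusted p 0.0432) passed on its p but not on its size. The difference between *Mitf* and the other genes was not itself tested.

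A gene was called where its adjusted p was under 0.05 and its log2 fold change exceeded 1 in size, and from 1 h to 24 h *Sox10*, *Foxd3*, *Erbb3* and *Ngfr* were called higher. Among all 13716 genes tested 10.6% were called higher and 12.1% in either direction. *Mitf* passed on the adjusted p alone, as did 28.9% of all genes in this direction. *Cdh19* and *Fabp7* reached the same thresholds, which brings the count to 6 of 7, but a gene admitted through its late libraries had to differ and nothing is read from that count. Since the 7 genes were selected on these libraries, their calls beside the shares of all genes are a description as well. Leaving out any single DMSO library gave a count of 6 again.

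The rise was spread over the day and its timing differed among the genes. From 1 h to 6 h *Sox10* was the only gene of the 7 called (log2 fold change 1.04 ± 0.18, edgeR adjusted p 0.00228), against 0.744% of genes in either direction over all genes. *Erbb3* rose by 0.64 ± 0.12 in the same interval (edgeR, adjusted p 0.00342), a change that was below the fold threshold. Without a minimum fold these 2 genes passed, against 4.17% of all genes in this direction. The *Sox10* call was lost without DMSO 1 h replicate 3 or DMSO 6 h replicate 3, and without DMSO 1 h replicate 1 a second gene was called. From 6 h to 12 h the log2 fold change of *Cdh19* was 1.90 ± 0.43, again a description, and it was past the call thresholds, except without any 1 of the 3 DMSO libraries of 6 h, without DMSO 12 h replicate 3 or on log2(FPKM + 1). None of the other 6 genes was called, against 0.656% over all genes. Without a minimum fold *Sox10* and *Ngfr* passed beside *Cdh19*, against 2.95% of all genes.

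*Ngfr* was late among them. It read 21.2, 21.2 and 20.5 CPM at 6 h, hardly above 1 h (log2 fold change 0.16 ± 0.10, edgeR adjusted p 0.36), and 28.0, 34.5 and 24.7 CPM at 12 h. The steps from 12 h to 18 h (0.91 ± 0.09, edgeR adjusted p 8.5e-06) and from 18 h to 24 h (0.56 ± 0.08, adjusted p 0.000537) were both under the fold threshold. *Erbb3* also rose from 12 h to 18 h (0.78 ± 0.11, edgeR adjusted p 0.000278). No gene of the 7 was called between 12 h and 18 h or between 18 h and 24 h, against 1.88% and 1.41% of all genes in either direction. Without a minimum fold 4 of the 7 passed from 12 h to 18 h (*Sox10*, *Erbb3*, *Foxd3* and *Ngfr*, against 7.27% of all genes higher) and 2 from 18 h to 24 h (*Erbb3* and *Ngfr*, against 7.21%). Without DMSO 12 h replicate 1, or without replicate 2, 1 gene was called from 12 h to 18 h.

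**Figure D1:**
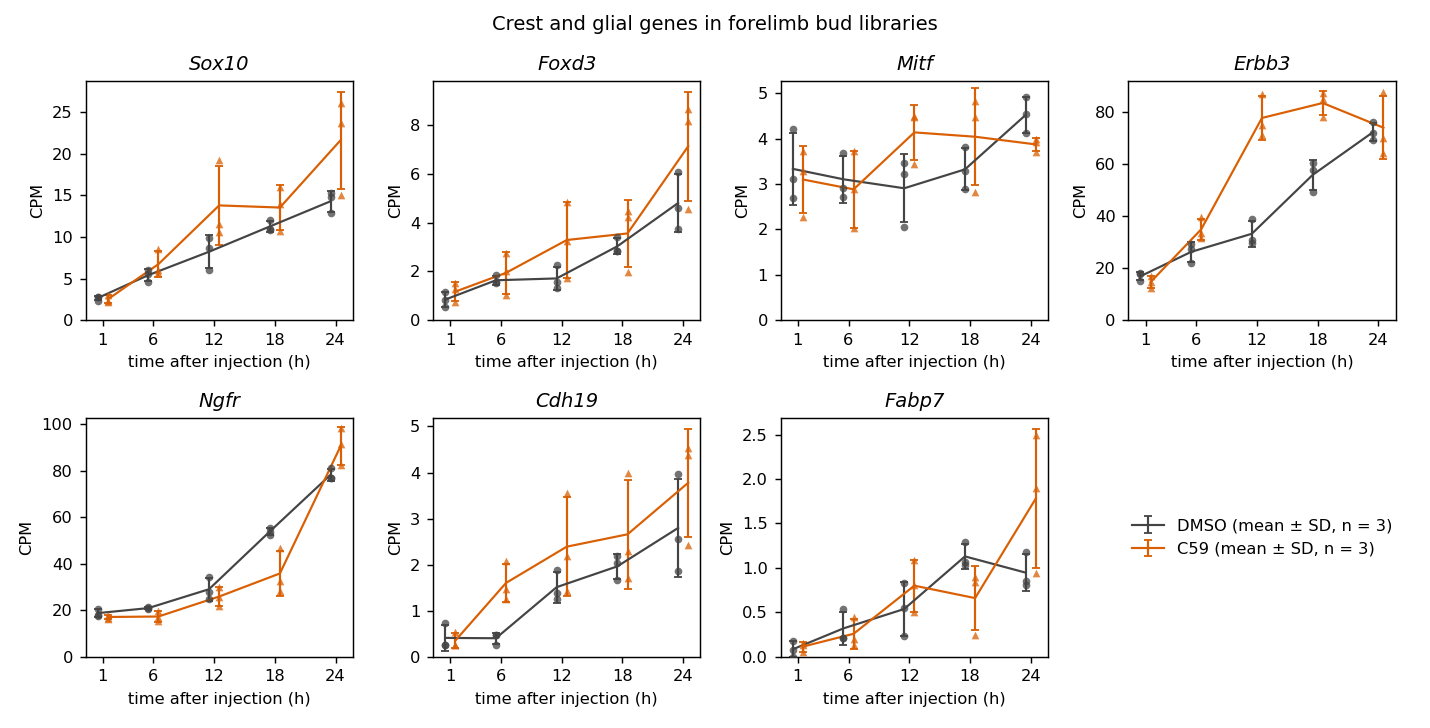
Level of each of the 7 genes in CPM (y axis, from 0, scaled for each gene) against hours after injection (x axis). Points are single libraries, lines join group means and bars are SD (n = 3), with DMSO in grey and C59 in orange. The mean of each gene was higher at 24 h than at 1 h in both treatments, by the smallest factor for *Mitf*, *Erbb3* stood at 77.8 CPM in C59 and 33.2 CPM in DMSO limb buds at 12 h, and *Ngfr* was lower in C59 at 18 h.

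Per length, *Ngfr* and *Erbb3* dominated the group. In DMSO limb buds at 24 h *Ngfr* had 18.3 FPKM ± 0.614 (SD, n = 3), *Erbb3* 9.48 ± 0.447 and *Sox10* 4.16 ± 0.361. *Foxd3* (1.58 ± 0.461), *Mitf* (1.10 ± 0.109) and *Fabp7* (0.957 ± 0.220) followed, with *Cdh19* the lowest (0.538 ± 0.211). In that order the libraries of *Foxd3* overlapped those of *Mitf*, and those of *Mitf* overlapped those of *Fabp7*, whereas the other neighbours did not overlap. *Ngfr*, *Erbb3* and *Sox10* kept places 1 to 3 in every DMSO group.

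At 1 h *Mitf* stood at place 4 (0.673 FPKM ± 0.139) and its libraries overlapped those of *Sox10* (0.715 ± 0.0405). *Cdh19* and *Fabp7* were then at 0.0762 and 0.0752 FPKM and overlapped too. *Ngfr* made up 51.3% of the summed FPKM of the 7 genes at 1 h and 50.7% at 24 h in DMSO limb buds. In C59 limb buds *Erbb3* had the highest mean at 6, 12 and 18 h. At 12 h it had 10.05 FPKM ± 1.15 against 5.79 ± 0.996 for *Ngfr*, without overlap, and made up 43.4% of the sum, compared with 28.7% in DMSO. At 6 h (4.26 FPKM ± 0.548 against 3.75 ± 0.538) and at 18 h (10.6 FPKM ± 0.618 against 8.28 ± 2.45) the libraries of the 2 receptors overlapped in C59, and at 1 h and 24 h *Ngfr* was first in both treatments.

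The second question was how the genes differ between C59 and DMSO limb buds of the same age. At 1 h the log2 fold changes of the 5 genes above the filter ran from -0.19 to 0.52, all with overlapping groups. *Cdh19* and *Fabp7* were below the filter at 1 h, and *Fabp7* also at 6 h. None of the 5 was called at 1 h, where 0.283% of all genes were.

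*Erbb3* showed the widest gap of the better expressed genes, and it came and went. At 6 h the C59 libraries read 33.7, 39.6 and 31.6 CPM and the DMSO libraries 27.3, 29.4 and 22.1 CPM. At 12 h they read 87.2, 75.2 and 71.1 CPM against 30.99, 39.1 and 29.7 CPM. By 18 h they had 78.4, 87.4 and 85.0 CPM against 49.4, 60.3 and 57.9 CPM. Every C59 library was above every DMSO library at these 3 times, whereas at 24 h the groups overlapped (64.4, 70.0 and 87.8 CPM against 72.0, 69.3 and 76.1 CPM). The log2 fold change went from 0.42 ± 0.10 (SE) at 6 h to 1.23 ± 0.11 at 12 h, then to 0.58 ± 0.10 at 18 h and 0.03 ± 0.10 in the last samples. Without C59 18 h replicate 3 the value at 18 h was 0.57. The C59 level at 12 h (77.8 CPM ± 8.36) lay near the DMSO level at 24 h (72.5 CPM ± 3.41).

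ERBB3 is also made by epithelia, so the values of surface ectoderm genes are given beside it. The summed FPKM of the 7 ectoderm genes of the lists (*Krt5*, *Krt14*, *Krt8*, *Krt18*, *Epcam*, *Cdh1* and *Trp63*) ran from 143 to 194 in C59 and from 93.4 to 107 in DMSO limb buds at 12 h, and from 130 to 164 against 99.9 to 110 at 18 h. At 6 h, where *Erbb3* was higher in C59, the sum ran from 98.5 to 102 in C59 and from 89.9 to 104 in DMSO limb buds, with overlap, and 3 of the 7 genes had a positive log2 fold change (median -0.01). At 24 h it ran from 150 to 163 in C59 and from 125 to 127 in DMSO, a time at which the *Erbb3* libraries of both treatments overlapped. None of the 7 was at 0 in any library and none was called in a C59 comparison, and their part in the *Erbb3* values was not tested.

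*Sox10* differed less. At 12 h the C59 libraries read 19.2, 11.6 and 10.6 CPM and the DMSO libraries 8.73, 9.93 and 6.02 CPM, without overlap, and at 24 h they read 15.1, 23.7 and 26.2 CPM against 14.8, 15.2 and 12.9 CPM, with overlap. C59 12 h replicate 1 was the highest of its group, and C59 24 h replicate 1 the lowest. Its log2 fold change was 0.33 ± 0.18 in the 6 h samples, 0.74 ± 0.24 at 12 h, 0.26 ± 0.16 at 18 h (0.24 without C59 18 h replicate 3) and 0.60 ± 0.16 in the 24 h samples.

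The ratio of *Erbb3* to *Sox10* in CPM was 5.91 ± 1.2 (SD, n = 3) in C59 and 4.14 ± 0.708 in DMSO limb buds at 12 h, 6.29 ± 0.948 against 4.96 ± 0.414 at 18 h, and 3.52 ± 0.677 against 5.11 ± 0.709 at 24 h. The libraries of both treatments overlapped at 12 h (4.54 to 6.73 in C59 and 3.55 to 4.92 in DMSO), whereas the ratio was higher in C59 without overlap at 18 h and lower without overlap at 24 h. For *Ngfr* the ratio was 1.95 ± 0.337 in C59 and 3.60 ± 0.459 in DMSO limb buds at 12 h, and 2.68 ± 0.662 against 4.80 ± 0.390 at 18 h. These ratios are descriptions and were not tested.

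*Cdh19* had 48, 30 and 28 counts in the C59 libraries of 6 h and 11, 5 and 8 counts in the DMSO libraries. That is 2.07, 1.47 and 1.26 CPM against 0.470, 0.262 and 0.476 CPM, a log2 fold change of 1.99 ± 0.37, and the C59 libraries carried it over the filter on low counts. The Y-linked genes divide the libraries of 6 h in the same way, and their part in this value cannot be told apart from that of the treatment. At 12 h the C59 libraries read 3.55, 2.2 and 1.42 CPM and overlapped the DMSO libraries (1.25, 1.39 and 1.89 CPM), and the later groups overlapped as well (log2 fold changes 0.65 ± 0.35, 0.42 ± 0.32 and 0.43 ± 0.29 at 12, 18 and 24 h). Without C59 18 h replicate 3 the value at 18 h was 0.65. The DMSO level of *Cdh19* at 12 h (1.51 CPM ± 0.337) stood next to the C59 level at 6 h (1.60 CPM ± 0.421).

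*Foxd3* overlapped between treatments at every time. Its widest gap was at 12 h, with 4.86, 3.26 and 1.75 CPM in C59 and 2.26, 1.55 and 1.32 CPM in DMSO limb buds (log2 fold change 0.92 ± 0.36). At 24 h it read 4.57, 8.19 and 8.65 CPM against 6.08, 4.61 and 3.73 CPM (0.58 ± 0.23). At 18 h the log2 fold change was 0.21 ± 0.29, and 0.01 without C59 18 h replicate 3.

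*Ngfr* went the other way until 18 h. At 6 h the C59 libraries read 15.2, 19.8 and 17.0 CPM and the DMSO libraries 21.2, 21.2 and 20.5 CPM. At 18 h they read 28.2, 32.6 and 46.9 CPM against 55.6, 52.3 and 53.8 CPM, and at 24 h 91.5, 82.3 and 98.3 CPM against 76.9, 76.9 and 81.3 CPM. The groups did not overlap at these 3 times, with C59 lower at 6 h and 18 h and higher at 24 h. Its log2 fold change was -0.26 ± 0.10 in the 6 h samples, -0.17 ± 0.14 at 12 h, -0.59 ± 0.17 at 18 h and 0.21 ± 0.07 in the last samples. C59 18 h replicate 3 had the highest level of its group, and without it the value at 18 h was -0.82. NGFR is also found outside glia, in limb mesenchyme and muscle progenitors. The summed FPKM of the 6 mesenchyme genes was 372 to 389 in C59 and 531 to 572 in DMSO limb buds at 6 h and 464 to 490 against 506 to 546 at 18 h, and their part in the *Ngfr* values was not tested.

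*Mitf* stood between 2.03 and 4.92 CPM in all 30 libraries. At 12 h the C59 libraries read 3.44, 4.48 and 4.5 CPM and the DMSO libraries 3.46, 2.05 and 3.21 CPM (log2 fold change 0.52 ± 0.23). At 18 h they read 4.48, 4.83 and 2.82 CPM against 3.81, 3.28 and 2.89 CPM (0.28 ± 0.24, and 0.49 without C59 18 h replicate 3). Its groups overlapped at every time but 24 h, where the C59 libraries (3.71, 3.92 and 3.997 CPM) lay just under the DMSO libraries (4.92, 4.12 and 4.54 CPM; log2 fold change -0.22 ± 0.16). *Fabp7* had 18, 18 and 5 counts in C59 and 24, 39 and 20 counts in DMSO limb buds at 18 h (log2 fold change -0.75 ± 0.41, and -0.36 without C59 18 h replicate 3). At 24 h it had 23, 50 and 53 counts against 16, 31 and 22 counts (0.89 ± 0.35).

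As a description, the thresholds of the call rule were passed by 1 of 6 genes at 6 h (*Cdh19*, carried over the filter by its C59 libraries, against 1.17% of all genes called), 1 of 7 at 12 h (*Erbb3*, against 4.95%), 0 of 7 at 18 h (against 1.29%) and 0 of 7 at 24 h (against 0.819%). These shares describe genes that were picked with the results known, and nothing is read from them. Groups without overlap and C59 higher were found for 2 of 6 genes at 6 h, 2 of 7 at 12 h, 1 of 7 at 18 h, 1 of 7 at 24 h and 0 of 5 at 1 h, where 15.2%, 26.8%, 16.6%, 13.2% and 9.12% of all genes were so arranged. C59 was lower without overlap for 1 of 6, 0 of 7, 2 of 7, 1 of 7 and 0 of 5 in the same order of times, against 21.4%, 30.3%, 17.4%, 14.6% and 12.9% of all genes. Without a minimum fold 0, 2, 2, 1 and 1 of the genes passed at 1, 6, 12, 18 and 24 h, all with C59 higher, against 1.14%, 8.2%, 22%, 3.46% and 2.88% of all genes. The median log2 fold change of the genes tested was -0.08, 0.29, 0.65, 0.26 and 0.43 at 1, 6, 12, 18 and 24 h, and that of all genes tested was 0.02 or less at each time. The number called at 12 h rose to 2 without C59 12 h replicate 3, when *Foxd3* joined with a log2 fold change of 1.24, and at 24 h 1 gene, *Fabp7* (1.19), was called without C59 24 h replicate 1.

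**Figure D2:**
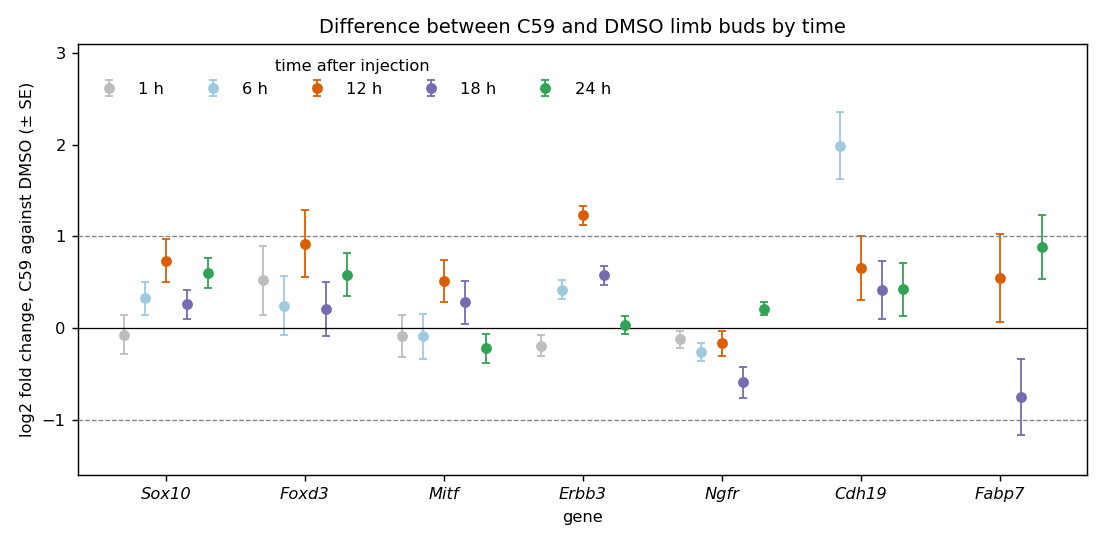
Log2 fold change of C59 against DMSO limb buds (y axis) for the 7 genes (x axis), with 1 point for each time above the filter on low counts, coloured by hours after injection. Bars are SE and dashed lines mark a log2 fold change of 1 in either direction. *Erbb3* reached 1.23 at 12 h and came back to 0.03 at 24 h, *Cdh19* stood at 1.99 at 6 h, and *Ngfr* was at -0.59 at 18 h.

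The libraries of a group differed in how much of these genes they held. The mean log2 deviation of the 7 genes from their group mean was 0.35 in C59 12 h replicate 1, with 6 of the 7 genes above the mean, and -0.35 in C59 12 h replicate 3, with 1 of 7 above. At 24 h it was -0.37 in C59 replicate 1 (1 of 7 above), 0.10 in replicate 2 (5 of 7) and 0.27 in replicate 3 (7 of 7). The 3 DMSO libraries of 24 h lay between -0.14 and 0.10. The part of embryo sex in these deviations was not tested.

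Over the 30 libraries, the log2 levels of the 7 genes correlated with one another in all 21 pairs (median Pearson r 0.80, from 0.30 to 0.94), with the rise over time shared by all libraries. *Erbb3* was closest to *Sox10* (r 0.941), followed by *Cdh19* (0.900), *Foxd3* (0.899), *Fabp7* (0.878), *Ngfr* (0.794) and *Mitf* (0.434). Many other genes followed the same course. The 5 genes most like *Sox10* in level, among 12540 with a mean of at least 1 CPM, were *Hic1* (0.967), *Col9a2* (0.967), *Tgfb3* (0.966), *Cnmd* (0.966) and *Gas2* (0.965), of which *Col9a2* and *Cnmd* are cartilage genes, and *Erbb3* came at place 59.

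After the mean of each group was taken off, 17 of the 21 pairs were still positive, with a median r of 0.30 and a range from -0.45 to 0.61. The gene most like *Sox10* was then *Ednrb*, the endothelin receptor of crest cells (r 0.801), followed by *Insc* (0.733), *Postn* (0.695), *Jun* (0.682) and *Sox17* (0.677). Of the 7 genes *Foxd3* (0.606, place 27) and *Ngfr* (0.563, place 49) were highest. *Mitf* stayed at 0.0582 with *Sox10* and was at -0.45 with *Ngfr*. These coefficients are descriptions over 30 libraries of 10 groups, in which genes of a library share its dissection and depth.

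**Figure D3:**
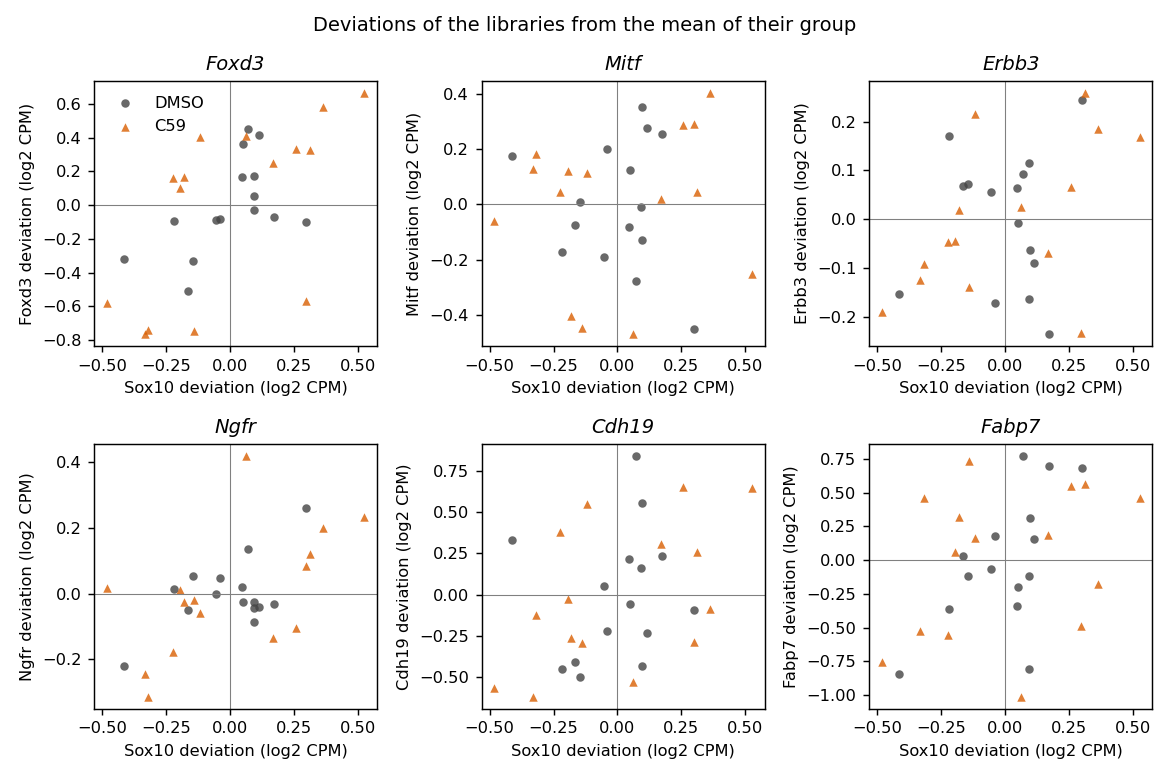
Deviation of each library from the mean of its group in log2 CPM, for *Sox10* (x axis) and each of the other 6 genes (y axis), with 1 point per library (15 DMSO in grey, 15 C59 in orange). *Foxd3* and *Ngfr* tended to be high in the libraries in which *Sox10* was high (r 0.606 and 0.563), and *Mitf* did not (r 0.0582).

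Other genes of these cells were compared from lists written from general knowledge, and their differences between treatments were tested. The lists were written with earlier results of these data known, so the p-values of their genes are not independent evidence. A defining marker of the glial lineage, *S100b*, was scarce. This gene of a calcium-binding protein of later glia had 2 to 7 counts per group up to 18 h and 32 counts in DMSO and 41 counts in C59 limb buds at 24 h.

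With time in DMSO limb buds, 6 of the 10 tested glial genes were called higher and none lower (10.6% higher over all genes). Among them were *Gfra3*, a receptor subunit for the GDNF family (2.01 ± 0.29, edgeR adjusted p 1.55e-05), the transcription factors *Pou3f1* (1.95 ± 0.33) and *Zfp536* (1.33 ± 0.25), *Lgi4* (1.37 ± 0.37), which has a role in myelination, and the integrin *Itga4* (1.31 ± 0.13). Of 10 crest genes *Rxrg* (2.87 ± 0.20) and *Ednrb* (2.13 ± 0.19, edgeR adjusted p 7.44e-08) rose, and *Pax3*, which also marks muscle progenitors, fell by 2.46 (30.3 CPM ± 1.156 at 1 h and 5.33 CPM ± 0.611 at 24 h). The other 4 tested glial genes and the other 7 tested crest genes were not called. *Lgi4*, at a mean of 0.646 CPM over the 30 libraries, may have passed the filter on low counts only through its later libraries. The count of 6 of 10 glial genes is thus a description.

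*Ednrb* was higher in C59 at 12 h (30.2, 16.9 and 17.3 CPM against 9.23, 14.3 and 7.06 CPM, log2 fold change 1.07 ± 0.27, edgeR adjusted p 0.0075), a call that was lost without DMSO replicate 1, DMSO replicate 3 or C59 replicate 1 of 12 h. *Pou3f1*, called at 18 h (1.07 ± 0.26, edgeR adjusted p 0.044), kept its call without C59 18 h replicate 3 (1.07, adjusted p 0.0419) and lost it in 8 of 16 alternatives, among them leaving out C59 18 h replicate 1 or 2 or DMSO 18 h replicate 2 or 3. *Pax3* was lower in C59 at 12 h (3.49, 3.89 and 2.71 CPM against 14.6, 11.3 and 15.9 CPM, -2.04 ± 0.18, edgeR adjusted p 8.28e-06), at 18 h (-1.33 ± 0.17) and at 24 h (-1.29 ± 0.17). *Pou3f1* was 1 of 10 glial genes tested at 18 h, and none of the tested glial genes was called lower in a C59 comparison. At 1 h 3 of 8 of them were positive (median log2 fold change -0.10), and at 6 h 11 of 11 (0.56). At 12, 18 and 24 h it was 8 of 10 (0.42), 5 of 10 (0.14) and 8 of 12 (0.45). Of the crest genes, 5 of 10 were positive at 6 h (0.01) and 6 of 10 at 12 h (0.14). These counts were not tested.

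Of the melanoblast list, *Dct*, an enzyme of melanin synthesis, was higher in C59 at 12 h (1.201, 0.676 and 1.42 CPM against 0.301, 0.555 and 0.631 CPM, log2 fold change 1.15 ± 0.42) and lower at 24 h (0.536, 0.571 and 0.517 CPM against 1.31, 1.41 and 1.48 CPM, -1.36 ± 0.29, edgeR adjusted p 0.0177). At 12 h its C59 libraries carried it over the filter on low counts, so that value is a description without a p. The call at 12 h held in 5 of 15 alternatives and was lost without any 1 library but C59 replicate 2, and the call at 24 h was lost without any 1 of the DMSO libraries or C59 replicate 2. *Trpm1* was at 1.62 CPM ± 0.446 in DMSO and 0.259 CPM ± 0.170 in C59 at 6 h (-2.59 ± 0.44), and had 1 count in the 3 C59 libraries of 12 h together. Its DMSO libraries carried it over the filter on low counts at both times, so these values are a description without a p. *Kit*, the highest of the list, did not differ at 24 h beyond its error (0.01 ± 0.08, edgeR adjusted p 0.955), and *Tyr*, named here after its values were seen, had no count in any library up to 18 h. At 12 h 1 of 4 tested genes of the list was higher and 1 lower, at 6 h 1 of 3 was lower, and at 24 h 1 of 4. Over all genes 4.95%, 1.17% and 0.819% were called in either direction at 12, 6 and 24 h.

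ERBB3 has little kinase activity of its own and signals together with ERBB2. *Erbb2* stood at 101 CPM ± 4.52 in DMSO and 114 CPM ± 3.26 in C59 limb buds at 6 h (log2 fold change 0.18 ± 0.05, edgeR adjusted p 0.0199) and at 107 CPM ± 3.59 and 128 CPM ± 1.94 at 12 h (0.27 ± 0.04, adjusted p 0.000669), below the fold threshold. Of the ligands, *Nrg2* was called higher at 12 h (1.11 CPM ± 0.429 against 0.470 CPM ± 0.225, 1.26 ± 0.44). Its C59 libraries carried it over the filter on low counts, so this call is a description without a p. *Nrg1*, named after its values were seen and so also given without a p, was under the fold threshold (2.68, 2.37 and 3.58 CPM against 0.903, 1.998 and 1.66 CPM, 0.93 ± 0.31). The *Nrg2* call was lost in DESeq2 and without DMSO 12 h replicate 1 or 3 or C59 12 h replicate 2. *Nrg2* was the only called gene of the 7 tested neuregulin and ERBB genes at 12 h (4.95% over all genes), and none was called at the other times. At 12 h 6 of these 7 had a positive log2 fold change (median 0.83), and at 24 h 3 of 7 (median -0.01). With time in DMSO limb buds *Egfr* (2.38 ± 0.18), *Erbb4* (2.65 ± 0.48) and *Nrg2* (1.63 ± 0.45) rose. *Erbb4* and *Nrg2* are low genes that may have passed the filter only through their later libraries, so their changes with time are a description.

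NGFR binds the neurotrophins, among them BDNF. Its gene *Bdnf* was lower in C59 at 6 h (3.94 CPM ± 0.423 against 10.4 CPM ± 0.853, log2 fold change -1.38 ± 0.14, edgeR adjusted p 1.95e-05) and at 12 h (3.39, 2.54 and 3.997 CPM against 10.4, 11.2 and 10.4 CPM, -1.69 ± 0.17, adjusted p 2.17e-05). The study named it in a gene network built from these libraries, so its presence in the list is not independent evidence of its direction. By 24 h it was not called (0.19 ± 0.10, edgeR adjusted p 0.312), at 13.8, 13.6 and 12.2 CPM against 11.3, 12.6 and 10.9 CPM.

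Of the receptors, *Ntrk2*, which encodes the BDNF receptor TRKB, was higher in C59 at 12 h (43.2, 44.6 and 40.1 CPM against 16.5, 20.5 and 11.5 CPM, log2 fold change 1.40 ± 0.15, edgeR adjusted p 3.7e-05), and this call held in all 16 alternatives. *Ntrk3*, the neurotrophin 3 receptor, was called at 1 h (2.27 CPM ± 0.884 against 0.829 CPM ± 0.248, 1.45 ± 0.34, edgeR adjusted p 0.0338). This call was at low counts and was lost without DMSO 1 h replicate 1 or 2 or C59 1 h replicate 1 or 2. With time in DMSO limb buds *Ntrk2* rose (1.49 ± 0.15, edgeR adjusted p 2.01e-07).

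**Figure D4:**
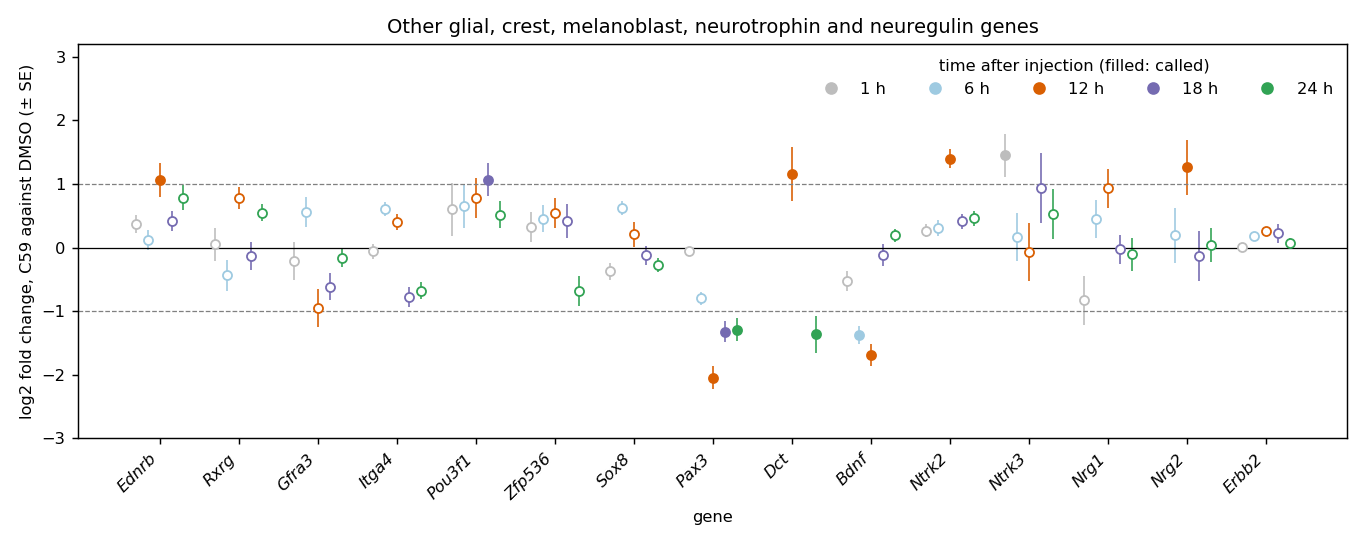
Log2 fold change of C59 against DMSO limb buds (y axis) for 15 other glial, crest, melanoblast, neurotrophin and neuregulin genes (x axis), coloured by hours after injection, with SE as bars. Filled points were called (adjusted p below 0.05 and beyond a log2 fold change of 1, dashed lines). *Ednrb* stands at 1.07 at 12 h, *Bdnf* at -1.38 and -1.69 at 6 and 12 h, and *Pax3* at -2.04 at 12 h.

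Nerve enters the limb with its glia, so the values of neuronal genes are given as well. How far they reflect the amount of nerve was not tested. The summed FPKM of the 16 neuronal genes was 35.7 to 38.9 in C59 and 35.4 to 38.8 in DMSO limb buds at 12 h and 34.6 to 40.4 against 41.2 to 48.4 at 24 h, with *Neurog2* at 0 in every library. At 12 h 1 of 9 tested neuronal genes was called higher, *Stmn2* (1.31 ± 0.17, edgeR adjusted p 0.000132), and 4 were lower, *Mnx1* (-2.14 ± 0.29), *Isl1* (-1.39 ± 0.25), *Elavl4* (-1.29 ± 0.22) and *Gap43* (-1.01 ± 0.07). Over all genes 4.95% were called in either direction at 12 h. The *Gap43* call was lost in 4 of 16 alternatives, among them upper-quartile factors and leaving out C59 12 h replicate 2. That of *Elavl4* was lost in 2 of 16, on both log2 FPKM scales. *Mnx1* and *Isl1* are motor neuron factors and *Isl1* is also made by limb mesenchyme. *Tubb3*, the tubulin of neurons, was lower in C59 at 24 h (14.2, 12.9 and 10.53 CPM against 21.3, 17.8 and 20.4 CPM, -0.65 ± 0.12, edgeR adjusted p 0.00661), under the fold threshold, at the time at which *Sox10* read 0.60 higher. The neural tube list was nearly empty, with a summed FPKM of 6 genes of at most 0.908 and 1 call, *Sox1* at 12 h (0.877 CPM ± 0.250 against 0.343 CPM ± 0.195, 1.33 ± 0.47). The C59 libraries carried *Sox1* over the filter on low counts, so its call is a description without a p. That call was lost in 10 of 15 alternatives, among them DESeq2, the replicate block and leaving out DMSO replicate 1 or 3 or C59 replicate 1 or 3 of 12 h.

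Markers of the other cell types in the limb bud moved as well. Of 7 muscle genes 2 were called higher in C59 at 6 h, *Myod1* (1.46 ± 0.10) and *Myog* (1.03 ± 0.12), and 3 lower at 18 h, *Lbx1* (-1.61 ± 0.12), *Myf5* (-1.13 ± 0.13) and *Met* (-1.07 ± 0.14), while at 12 h *Myog* (1.56 ± 0.23) was higher and *Lbx1* (-1.15 ± 0.14) lower. The *Met* call was lost in 4 of 16 alternatives, among them leaving out C59 18 h replicate 3 or DMSO 18 h replicate 3. The *Myog* call of 6 h was lost in 2 of 16, among them leaving out C59 6 h replicate 2. The macrophage genes *Adgre1* (1.33 ± 0.24) and *Fcer1g* (1.12 ± 0.24) were higher at 12 h, and the mesenchyme genes *Twist1* (-1.39 ± 0.04 at 6 h and -1.19 ± 0.05 at 12 h) and *Prrx2* (-1.11 ± 0.06 at 12 h) lower. The *Fcer1g* call was lost in 2 of 16 alternatives, among them leaving out DMSO 12 h replicate 1. None of the 7 endothelial, 5 tested erythroid and 7 ectoderm genes was called in a C59 comparison. At 12 h, however, all of them had a positive log2 fold change (medians 0.27, 0.42 and 0.47). So did all 6 macrophage genes (median 0.73), 4 of 7 muscle genes and 5 of 9 neuronal genes, compared with 1 of 6 mesenchyme genes (median -0.53). The median of the 7 genes at that time was 0.65. Over all lists apart from the 7 genes, 1 of 80 tested genes was called higher at 1 h, 4 of 85 were higher and 4 lower at 6 h, 10 of 87 higher and 10 lower at 12 h, 1 of 86 higher and 5 lower at 18 h, and 1 of 89 higher and 2 lower at 24 h. Over all genes 0.283%, 1.17%, 4.95%, 1.29% and 0.819% were called in either direction at these times. The lists were written with earlier results known, so their counts are a description. How much these shifts in other cells contribute to the values of the 7 genes was not tested.

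With time in DMSO limb buds the muscle genes *Myod1* (4.25 ± 0.12), *Myog* (3.86 ± 0.27), *Pax7* (3.85 ± 0.30) and *Msc* (2.91 ± 0.15), the macrophage genes *Adgre1* (1.97 ± 0.28), *Cx3cr1* (1.30 ± 0.16) and *Csf1r* (1.08 ± 0.12), the globins *Hbb-bs* (2.58 ± 0.23) and *Hbb-bt* (2.43 ± 0.21) and the ectoderm keratins *Krt14* (2.43 ± 0.12) and *Krt5* (1.18 ± 0.07) were called higher as well, and *Krt8* (-1.57 ± 0.12) lower. Genes of several cell types thus rose over the same day. No endothelial gene and, apart from *Meox2* (1.24 ± 0.06), no mesenchyme gene was called over the same interval. Of the neuronal genes *Stmn2* (2.08 ± 0.21), *Isl1* (1.79 ± 0.26), *Nefl* (1.34 ± 0.25) and *Nefm* (1.33 ± 0.23) rose and *Pou4f1* (-1.84 ± 0.31) fell. The neural tube gene *Dbx1* had 0.0165 CPM ± 0.0286 at 1 h and 0.706 CPM ± 0.130 at 24 h, and *Trpm1* of the melanoblast list fell by 2.03 while *Dct* rose by 3.17. These low genes may have passed the filter only through the libraries where they were high, so their changes are a description.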

How the data were processed

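PolyA RNA was sequenced as read pairs from forelimb buds of wild-type embryos, in 30 libraries, 3 for each treatment and time. According to the labels and methods, the authors trimmed reads with Cutadapt 1.16 and aligned them to mm10 with STAR 2.7.0e, which gave the deposited counts per gene. They computed the deposited FPKM values with Cufflinks 2.2.1. The strand of counting was not given in the sources used here, and the FPKM run was unstranded. The libraries held 18188636 to 38974885 counts, and genes below 1 CPM rest on few counts.

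The 7 genes and all lists were chosen with earlier results of these data known. The rule for genes named beside the 7 took *Axin2*, list genes called in a C59 comparison or in DMSO from 1 h to 24 h, the highest and lowest gene of a list, 6 defining markers, and the 5 genes most like *Sox10* in level and in deviation. Protein-coding autosomal genes were fitted with edgeR 4.0.16 (R 4.3.3) by its quasi-likelihood test after TMM normalisation and filterByExpr (minimum count 10, minimum total 15), separately for the 6 libraries of each time, and over the 15 DMSO libraries for comparisons of times. P-values were adjusted by the Benjamini-Hochberg method over all genes tested, 13076 to 13716 per comparison. Standard errors were derived from the fold change and its F statistic, and correlations used log2 CPM with a prior count of 2. A gene was called at an adjusted p under 0.05 and a log2 fold change over 1 in size. A low gene that passed the filter only through the group where it was high had to differ, and its call is a description. Genes on chromosome X are absent from the count fit and were taken from FPKM only. The study fitted DESeq2 at each time, and DESeq2 1.42.0 was run here as an alternative, next to limma 3.58.1 on log2(FPKM + 1) and log2(FPKM + 0.1), other scaling factors, other filters, the replicate number as a block, a shared spread over 30 libraries, no minimum fold, and each library left out. Counts of alternatives per gene leave out the change of the fold threshold. The scripts were tested on simulated data. Promoter sequence came from RefSeq windows of GRCm38.p6, which were at hand for 4 of the 7 genes, with 6 windows in all.

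The lists held 121 genes in 14 groups, for glia, crest, melanoblasts, neuregulin and ERBB genes, neurotrophins, neurons, neural tube, muscle, endothelium, macrophages, erythroid cells, ectoderm, mesenchyme and the 7 genes themselves. A few genes of these lists enter the counts over lists but are not reported here.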

Additional observations from a re-analysis of the deposited data

Results flagged for a closer look

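*Ngfr* stood out because its C59 libraries lay wholly below the DMSO libraries at 18 h (log2 fold change -0.5906) and wholly above them at 24 h (0.2119). The difference between the times was not tested, and *Ngfr* is one of the genes selected on these libraries.

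*Dct*, *Lbx1* and *Myod1* likewise had all C59 libraries on one side at one time and on the opposite side at another. *Dct* was higher at 12 h (1.151) and lower at 24 h (-1.359). *Lbx1* was higher at 6 h (0.1845) and lower at 18 h (-1.611), and *Myod1* was higher at 6 h (1.461) and lower at 24 h (-0.3778). None of these differences between times was tested. *Lbx1* and *Myod1* belong to the muscle lineage.

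Genes of chromosome X occur only in the FPKM table. The C59 libraries lay above the DMSO libraries at 12 h for the neuronal gene *Dcx* (mean 10.68 FPKM against 6.28) and for the neural tube gene *Sox3* (0.2093 FPKM against 0.0325), and for *Sox3* also at 18 h (0.08832 FPKM against 0.0301). These values were not tested, and the levels of *Sox3* are near the lower limit of the table.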

How the results depend on the processing

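No value changed direction in a call under any alternative run. In the C59 comparisons, which were not tested for the 7 genes, 537 of 540 log2 fold changes under alternatives moved by less than the spread between replicates, although *Foxd3* and *Fabp7* passed the call thresholds in some, as given in the report. The totals here and in the next sentence include the run without a minimum fold, which repeats the fold changes of the report. Leaving out a single library can hardly move a value beyond the spread between replicates. The count of 537 is thus a description and does not show how firm the values are. In the DMSO comparisons 881 of 905 values of the 7 genes kept their side of the threshold, *Cdh19* and *Fabp7* included, and so did 1849 of 2061 for called genes of the other lists. On log2(FPKM + 1), which compresses low values, the other lists gave 0, 2, 6, 1 and 0 calls at 1, 6, 12, 18 and 24 h, compared with 1, 8, 20, 6 and 3 in the report, and the 7 genes gave 0 at 6 h. On that scale the DMSO comparisons of 6 h with 1 h and of 12 h with 6 h gave 0 calls among the 7 genes, and on log2(FPKM + 0.1) the first of them gave 0 and the other lists 0 at 1 h. With a spread shared by all 30 libraries the other lists gave 0 calls at 1 h. Requiring a mean of 1 CPM left 0 of the 7 genes and 5 of the other genes called at 6 h, since *Cdh19* was then no longer tested. With upper-quartile factors 2 of the 7 genes were called at 12 h, the share of higher calls over all genes went from 71.2% to 78.8%, and the median of all genes moved to 0.10. Without a minimum fold the other lists gave 4, 27, 53, 16 and 17 calls, and the 7 genes 2, 2, 1 and 1 from 6 h to 24 h, and 2, 3, 4 and 2 over the successive DMSO intervals. Leaving out each library in turn gave 0 to 2, 4 to 6, 16 to 24, 4 to 7 and 1 to 5 calls in the other lists. For the 7 genes it gave 0 at 1 h, 1 at 6 h, 1 to 2 at 12 h, 0 at 18 h and 0 to 1 at 24 h, and in DMSO 6 from 1 h to 24 h, 0 to 2 from 1 h to 6 h, 0 to 1 from 6 h to 12 h, 0 to 1 from 12 h to 18 h and 0 from 18 h to 24 h. Beyond compression, fewer samples and fewer genes tested, the cause was not tested.

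Replicate numbers were not used to pair the samples, and 1 of 15 same-numbered pairs correlated above 0.1 in their deviations (range -0.169 to 0.131). All same-numbered pairs of 12 h were positive (0.036, 0.0716 and 0.131), and all of 1 h and 6 h were negative. Whether same-numbered libraries shared a litter or a day cannot be told from these values. With the number as a replicate block the 7 genes had the same counts of calls as in the report at each comparison, and the other lists had 1, 6, 18, 5 and 3 calls. Counting depth limits *Cdh19*, *Fabp7* and the melanoblast genes most.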
